A study of Caenorhabditis remanei with 28 samples.

Results

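In 39 of 25337 gene identifiers of Caenorhabditis remanei, the mean level in first-stage (L1) larvae of a population selected for resistance to oxidative stress was at least 2 times the mean in each of 3 other populations. The rule also asked for an oxidative mean of at least 5 CPM, the read count of a gene scaled to a common total of reads assigned to genes, which 8823 identifiers reached. The means were taken over replicates 1 to 6 of the oxidative-selected, heat-selected and control-selected populations and over replicates 3 to 6 of the ancestor, 22 libraries in all. The levels in these libraries chose the 39 genes, so their height in the oxidative population is given as a description.

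C. remanei is a nematode that reproduces by mating of males with females. The oxidative-selected (6 libraries, replicates 1 to 6), heat-selected (8 libraries) and control-selected (8 libraries) populations all descend from strain PX443, which is the ancestor (6 libraries, replicates 3 to 8). Worms were grown at 20 °C on bacteria, and synchronised embryos hatched during 20 h in buffer with no food. Each library holds the poly-A RNA of roughly 100000 larvae that had passed a 20 µm filter. The series design places every library at 20 °C; the protocol also names another incubation temperature, and the titles of oxidative and heat libraries give none. No label records an exposure of these larvae to an oxidant. Each selection regime was represented by 1 population, so that selection and drift cannot be told apart. Whether replicates were grown as separate cultures is not stated, and p-values reflect only the library-to-library spread, part of which may be technical.

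Resistance to oxidative stress in nematodes is known to draw on enzymes that remove reactive oxygen species, on the glutathione system and other detoxifying enzymes, and on transcription factors that switch these genes on when an oxidant is met. Larvae that hatch without food arrest at the first stage, and stress resistance is part of that arrested state. The deposited identifiers are not paired with gene names, and 0 of 25337 matched the RefSeq gene table of the species, so the 39 genes are given by identifier with no role, position or sequence, and whether any of them belongs to these known pathways was not tested. CPM is not scaled to gene length, so the levels of different genes are not set against each other.

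The oxidative means of the 39 genes lay between 5.24 and 1209.9 CPM with a median of 14.9 CPM. The ratio of the oxidative mean to the highest of the other 3 means lay between 2.03 and 14.6 with a median of 2.52, beside a median of 0.953 over the 8823 genes with an oxidative mean of at least 5 CPM. By ratio, 19 genes had a ratio under 2.5, 11 had a ratio of at least 3, and 6 had a ratio of at least 4. By level, 13 genes were under 10 CPM in the oxidative population, 18 were between 10 and 50 CPM, and 8 were at or above 50 CPM. The population with the highest of the other means was heat for 14 genes, control for 11 and ancestor for 14.

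**Figure D1:**
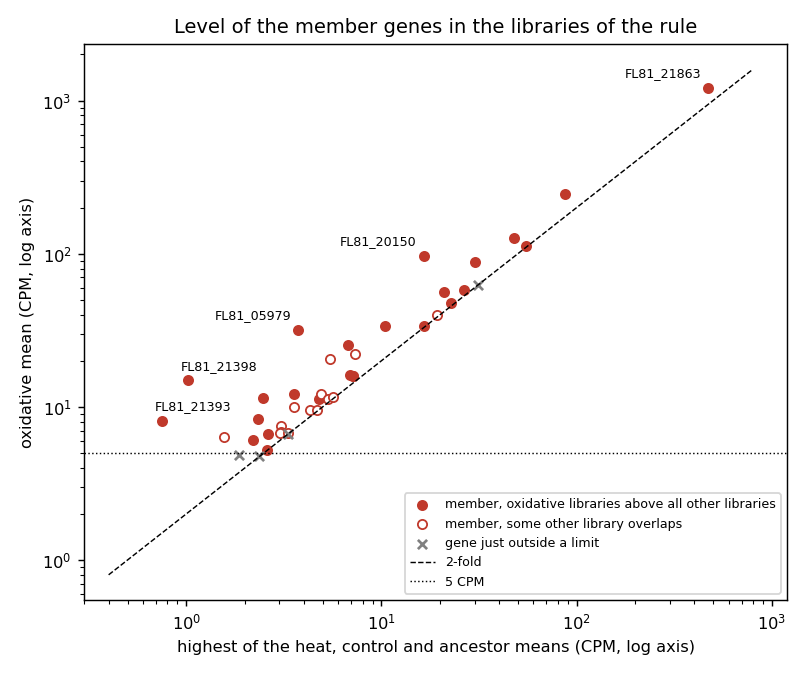
Oxidative mean (vertical axis, CPM, log scale) against the highest of the heat, control and ancestor means (horizontal axis, CPM, log scale), 1 point per gene over the libraries of the rule. Filled points are the 25 genes whose 6 oxidative libraries lay above all 22 other libraries, and open points the 14 with an overlap. Crosses are the genes just outside a limit, and the lines mark 2-fold and 5 CPM. FL81_21398 stands farthest from the 2-fold line, and FL81_21863 took the most reads.

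For 25 of the 39 genes, the lowest oxidative library was above every one of the 22 libraries of the other populations, a separation found in 1.61% of the 11952 genes abundant enough to be tested. In the remaining 14 genes at least 1 other library reached into the oxidative range, so the label "raised only in oxidative-selected larvae" describes the means of these genes and not every library. The overlap was with 1 library in 4 genes, with 2 to 4 libraries in 8 genes and with more than 4 in 2 genes. Ancestor replicate 5 reached above the lowest oxidative library in 9 genes, heat replicate 1 in 7 and control replicate 2 in 5. These libraries were the highest of their own population in 54.7%, 52.5% and 49.5% of all genes at 5 CPM or more. The share of all genes in which they reached above the lowest oxidative library was not computed. The counts are therefore not read as a result about the 39 genes.

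In edgeR's quasi-likelihood test across all tested genes, 38 of the 39 had an adjusted p under 0.05 for higher expression in oxidative than in heat larvae, 36 than in control larvae and 35 than in ancestor larvae. The shares of all tested genes called higher in the same comparisons were 3.61%, 6.84% and 2.38%, and 35 of the 39 were called in all 3, beside 1.51% of all genes. These contrasts were used to choose the genes, and they share the oxidative libraries. Without heat replicates 3 to 6, an alternative added after the data were seen, 33 of the 39 were called higher than in heat (2.37% of all genes tested), 37 than in control (6.15%), 34 than in ancestor larvae (2.35%) and 32 in all 3 (1.31%). With all 28 libraries, 180 genes were called in all 3 contrasts, of which 145 were not among the 39. The shared 35 genes made up 89.7% of the 39 and 19.4% of the 180.

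**Figure D2:**
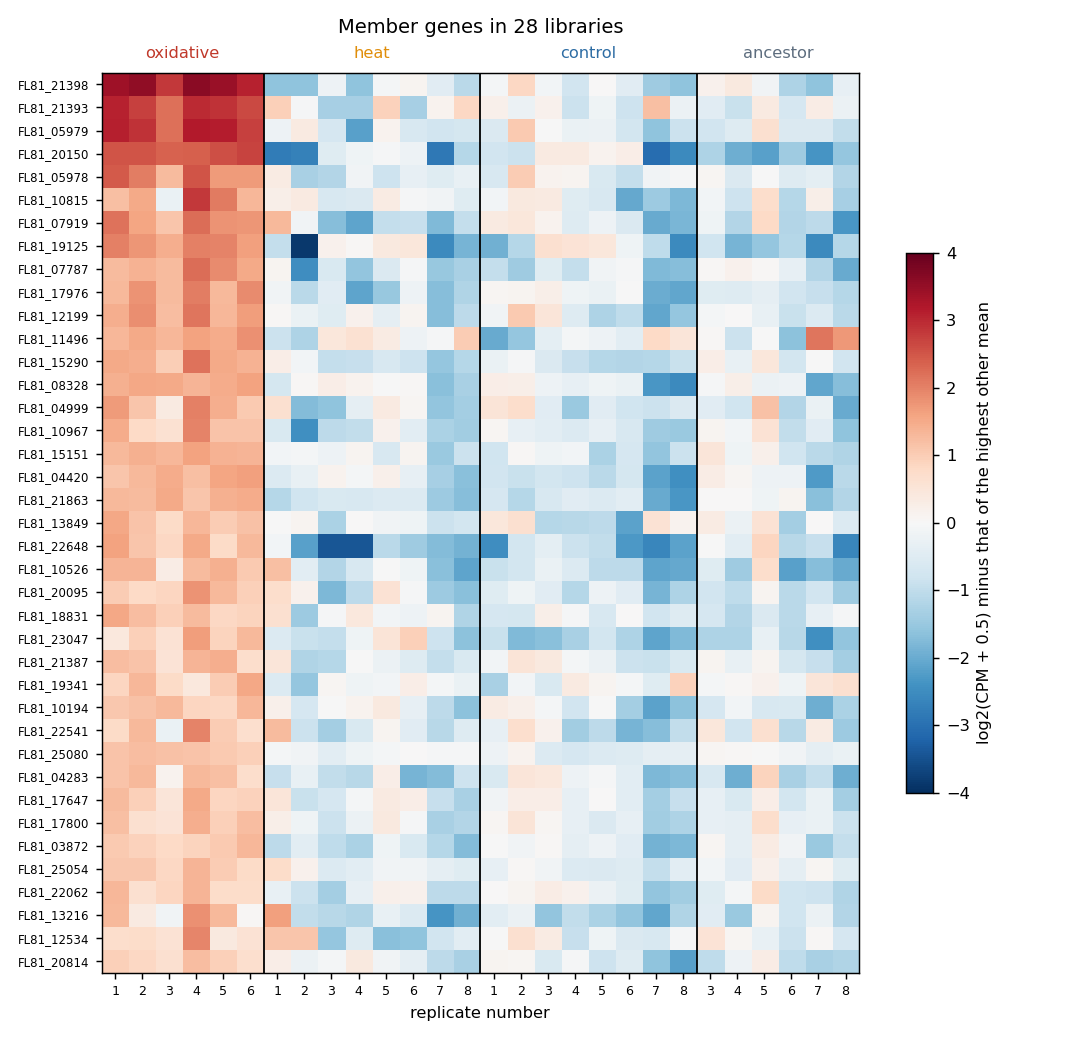
Level of the 39 genes (rows, ordered by ratio) in 28 libraries (columns, grouped by population and replicate number) as log2(CPM + 0.5) minus the same value of the highest other population mean; red is above that mean, blue below it, and the colours saturate at 4 log2 units. The 6 oxidative columns are red in nearly every row, and replicates 7 and 8 of the other populations are bluer than replicates 1 to 6 in most rows.

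FL81_21398 had the largest ratio. Its 6 oxidative libraries ranged from 10.3 to 18.0 CPM with a median of 15.7 CPM, against 0 to 1.13 CPM in heat replicates 1 to 6 (median 0.406), 0.384 to 2.21 CPM in control replicates 1 to 6 (median 0.934) and 1.21, 1.505, 0.882 and 0.145 CPM in ancestor replicates 3 to 6. Every oxidative library was far above the highest other library, control replicate 2. The values rest on 56 to 76 reads in an oxidative library and on at most 9 reads in another library of the rule. With means of 14.9 ± 2.97 CPM in oxidative larvae (SD, n = 6) and 1.02 ± 0.633 CPM in control larvae (n = 6), the ratio was 14.6.

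FL81_21393 showed the same separation with fewer reads. It ranged from 5.21 to 10.2 CPM in oxidative larvae (median 8.32), against 0 to 1.93 CPM in heat (median 0.355), 0.192 to 0.951 CPM in control (median 0.585) and 0.405, 0.167, 1.10 and 0.290 CPM in ancestor larvae. The oxidative libraries did not overlap with any other, although control replicate 7, which the rule did not use, reached 2.40 CPM. Its oxidative mean was 10.8 times the highest other mean, that of the heat libraries.

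FL81_05979 and FL81_05978 carry consecutive identifiers. FL81_05979 ranged from 19.1 to 38.02 CPM in oxidative larvae (median 33.8), against 0.439 to 4.98 CPM in heat (median 2.73), 2.05 to 8.29 CPM in control (median 3.08) and 2.02, 2.51, 6.17 and 2.32 CPM in ancestor larvae, a ratio of 8.41. FL81_05978 ranged from 6.60 to 16.4 CPM in oxidative larvae (median 10.5), against 0.711 to 3.21 CPM in heat (median 1.52), 1.02 to 5.53 CPM in control (median 2.06) and 2.63, 1.505, 2.43 and 1.60 CPM in ancestor larvae, a ratio of 4.64. Neither gene had an oxidative library within the range of the others, and control replicate 2 was the highest other library for both. If the pair are neighbours that overlap, or near-identical copies, their reads could have been split between them, which the deposited counts do not show.

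FL81_20150 took the most reads of these 6 genes in oxidative larvae. Its oxidative libraries held 97.4, 96.6, 87.1, 87.6, 101 and 109 CPM in replicates 1 to 6, a mean of 96.5 ± 8.4 CPM (SD). The other populations were lower: heat replicates 1 to 6 ranged from 1.93 to 16.02 CPM (median 13.0), control replicates 1 to 6 from 8.84 to 21.5 CPM (median 19.0), and ancestor replicates 3 to 6 held 6.68, 3.85, 3.31 and 5.81 CPM. The ratio to the highest other mean, in control, was 5.86, and the ratio to the ancestor mean was 19.7.

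FL81_10815 was the least even of the 6 genes. Its oxidative libraries held 4.27, 5.44, 1.22, 14.2, 8.26 and 4.67 CPM, against at most 2.13 CPM in heat, 2.21 CPM in control and 2.87 CPM in ancestor larvae of the rule. Oxidative replicate 3 lay within the range of the others, and 11 of the 22 other libraries were above it, the most for any of the 39 genes. Without oxidative replicate 4 its oxidative mean was 4.77 CPM and it no longer met the level limit, with a ratio of 3.06.

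**Figure D3:**
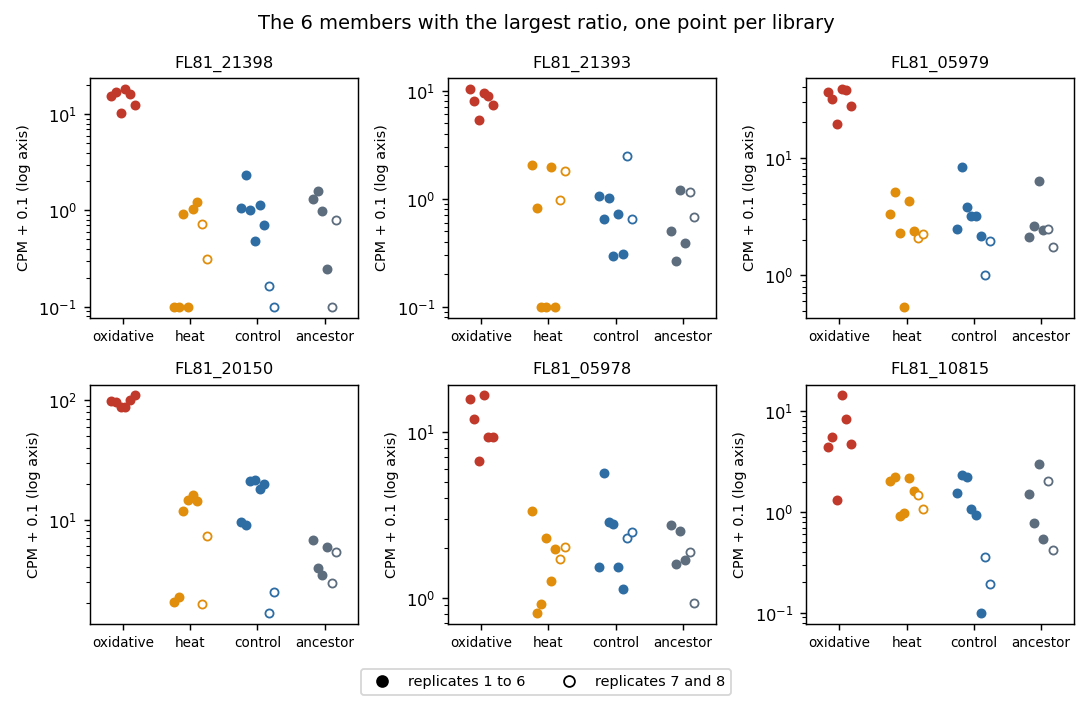
Level of the 6 genes with the largest ratio, as CPM + 0.1 on a log axis, 1 point per library; filled points are replicates 1 to 6 and open points replicates 7 and 8, which exist only in the heat, control and ancestor populations. The oxidative points lie above all others in 5 of the 6 genes, and in FL81_10815 the lowest oxidative point, at 1.22 CPM, lies among the others.

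FL81_21863 took the most reads of the 39 genes and accounted for about as many reads in oxidative larvae as the other 38 together. Its oxidative libraries ranged from 1029 to 1339 CPM (mean 1209.9 ± 120.4, SD, n = 6), against 215 to 326 CPM in heat (290.1 ± 41.5, n = 6), 214 to 351 CPM in control (305 ± 49.8, n = 6) and 482, 477, 423 and 505 CPM in ancestor larvae (472 ± 35.0, n = 4). The lowest oxidative library was about 2 times the highest of the others, ancestor replicate 6, and the ratio of means was 2.56.

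FL81_08328 and FL81_04420 had the next most reads. FL81_08328 ranged from 225 to 267 CPM in oxidative larvae (mean 247 ± 15.0), against 54.0 to 106 CPM in heat (87.4 ± 17.8), 68.8 to 105 CPM in control (83.9 ± 15.5) and 84.2, 103, 73.9 and 75.2 CPM in ancestor larvae (84.1 ± 13.4). The other 3 populations were level with each other, and the coefficient of variation of its oxidative libraries was 6.09% in CPM and 14.5% after scaling by TMM, a factor that sets the bulk of genes level between libraries. FL81_04420 ranged from 104 to 151 CPM in oxidative larvae (127 ± 18.9), against 32.8 to 55.04 CPM in heat (43.7 ± 8.92), 22.4 to 28.9 CPM in control (26.7 ± 2.43) and 58.7, 49.8, 41.2 and 40.9 CPM in ancestor larvae (47.7 ± 8.42).

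FL81_25054 stood close to the 2-fold limit although no library overlapped. Its oxidative libraries held 117, 117, 96.8, 140.5, 110.4 and 93.7 CPM, against 37.1 to 90.6 CPM in heat (median 49.4), 36.6 to 56.4 CPM in control (median 40.8) and 51.0, 40.1, 62.6 and 42.3 CPM in ancestor larvae. Heat replicate 1, at 90.6 CPM, came near the lowest oxidative library, and the ratio was 2.05. FL81_15290 held 86.6, 84.0, 60.0, 136, 86.8 and 79.9 CPM in oxidative larvae, against 15.2 to 36.6 CPM in heat (median 18.1), 13.1 to 29.3 CPM in control (median 17.9) and 36.6, 24.2, 41.5 and 18.0 CPM in ancestor larvae, a ratio of 2.95. Oxidative replicate 4 was well above the other oxidative libraries for this gene.

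Summed over the 39 genes, the level was 2481 ± 77.0 CPM in oxidative larvae (SD, n = 6), against 704 ± 45.2 CPM in heat replicates 1 to 6 (n = 6), 686 ± 21.5 CPM in control replicates 1 to 6 (n = 6) and 883 ± 49.2 CPM in ancestor replicates 3 to 6 (n = 4). The genes thus took between 0.240% and 0.259% of the gene counts of an oxidative library. Without FL81_21863 the sums were 1271 ± 116 CPM in oxidative, 414 ± 44.7 CPM in heat, 381 ± 62.7 CPM in control and 411 ± 77.4 CPM in ancestor larvae, so that the higher ancestor sum came from that gene. In RNA of whole larvae, more cells of a type and more RNA per cell cannot be told apart.

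**Figure D4:**
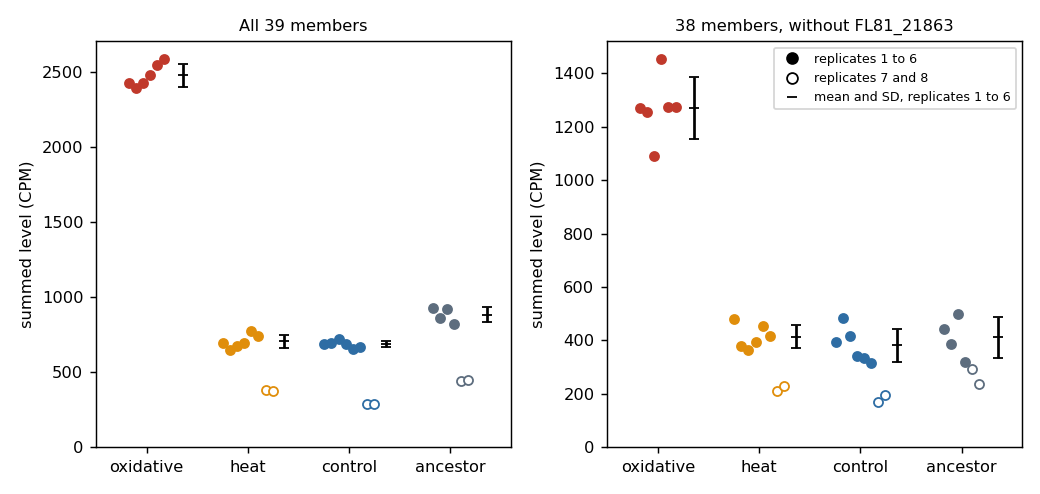
Summed CPM of all 39 genes (left) and of the 38 genes without FL81_21863 (right), 1 point per library; filled points are replicates 1 to 6, open points replicates 7 and 8, and the bars give the mean and SD of replicates 1 to 6. The 6 oxidative libraries, at 2398 to 2592 CPM for all 39 genes, lie above every other library.

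At the 2-fold limit, FL81_20814 (ratio 2.03) and FL81_12534 (ratio 2.04) were just inside, and FL81_01361 (6.64 CPM in oxidative against 3.33 CPM in control larvae, ratio 1.99) and FL81_13910 (62.1 CPM in oxidative against 31.2 CPM in the next population, ratio 1.99) were just outside. At the level limit, FL81_20814 (5.24 CPM) and FL81_10967 (6.03 CPM) were just inside, and FL81_20378 (4.83 CPM, ratio 2.59) and FL81_01191 (4.79 CPM, ratio 2.02) were just outside. FL81_12534 was less even than FL81_20814: its oxidative libraries held 5.69, 5.93, 5.21, 14.2, 4.48 and 5.27 CPM, heat replicates 1 and 2 held 7.71 and 7.82 CPM, and heat replicates 3 to 6 held 0.812, 2.20, 0.697 and 0.751 CPM. Its oxidative and heat libraries overlapped, and without oxidative replicate 4 its ratio was 1.60.

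In CPM, FL81_22541 overlapped with 7 of the 22 other libraries, the most after FL81_10815. It held 7.72, 11.4, 3.48, 18.4, 9.20 and 7.10 CPM in oxidative larvae, against 1.35 to 10.9 CPM in heat (median 2.82), 0.819 to 7.19 CPM in control (median 2.59) and 6.07, 2.34, 7.06 and 1.74 CPM in ancestor larvae. Again replicate 4 was the highest and replicate 3 the lowest oxidative library. With TMM-scaled CPM, FL81_22541 also overlapped with 7 libraries, but FL81_19341 came before it with 9, after FL81_10815 with 10.

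Replicate 4 was the highest of the 6 oxidative libraries in 24 of the 39 genes, beside 43.6% of all genes at 5 CPM or more, and replicate 3 was the lowest in 24, beside 48.5% of all genes. After TMM scaling the counts were 15 genes (26.1% of all genes) and 14 genes (26.2%). The median coefficient of variation among oxidative libraries was 24.4% for the 39 genes and 17.2% for all genes at 5 CPM or more; with TMM it was 19.0% and 16.7%. When oxidative replicate 4 was left out of the rule, 29 of the 39 genes still met it; the 10 others were FL81_10815, FL81_12534, FL81_13216, FL81_17647, FL81_17800, FL81_20814, FL81_22062, FL81_22541, FL81_23047 and FL81_25054. Leaving out replicate 1 lost 2 genes, replicates 5 and 6 lost 1 each, and replicates 2 and 3 lost 0. Whichever single library of the rule was left out, 27 genes met it every time. With TMM-scaled CPM 33 genes met the rule, and the 6 that did not (FL81_25080, FL81_17800, FL81_03872, FL81_22062, FL81_12534 and FL81_20814) had ratios of 1.88 to 1.97. On that scale 28 of the 39 genes had no overlap with another population's library, and the share of all genes was not computed.

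The rule was applied without each oxidative library in turn, and the genes so found were read in that library against the same means of the other populations. Only the level in the left-out library is outside the choice of genes; the means it was divided by were used to choose them. Replicate 1 was at least 2 times each other mean in 33 of 42 genes (0.733% of all genes at that level), replicate 2 in 30 of 46 (0.521%) and replicate 3 in 18 of 54 (0.291%). Replicate 4 reached it in 26 of 33 (2.83%), replicate 5 in 31 of 43 (0.601%) and replicate 6 in 26 of 40 (0.475%). Replicate 3, at 33.3%, had the lowest share. With TMM-scaled CPM it reached 2-fold in 22 of 38 genes, or 57.9% (0.454% of all genes), while replicate 1 did so in 26 of 32 (0.446% of all genes), replicate 2 in 25 of 33 (0.398%), replicate 4 in 21 of 26 (1.12%), replicate 5 in 26 of 34 (0.478%) and replicate 6 in 24 of 35 (0.444%). The other populations' means are the same in each of these 6 readings, which are therefore not independent.

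Among the heat, control and ancestor populations, no call was made for any of the 39 genes in edgeR's main test. In heat against control larvae, edgeR called 0 of the 39 at an adjusted p under 0.05, beside 0.761% of all genes, with 3 genes at an unadjusted p under 0.05 and 1 called by DESeq2. In heat against ancestor larvae it called 0, beside 0.41% of all genes, with 5 at an unadjusted p under 0.05 and 1 called by DESeq2. In control against ancestor larvae it called 0, beside 0.0669% of all genes, with 7 at an unadjusted p under 0.05 and 0 called by DESeq2. With backgrounds this low a count of 0 is near what all genes gave, and the rule had set an upper limit on each of these means. No share of all genes is given here for the unadjusted counts or for the DESeq2 calls, so neither is read as a result about the 39 genes. DESeq2's calls over all genes in these comparisons are given further below. The median log2 fold changes of the 39 genes were -0.02, -0.07 and -0.07 in these comparisons, and those of all genes were 0.00, -0.00 and -0.00.

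FL81_15290 came nearest to a call, with a log2 fold change in heat against ancestor larvae of -0.63 (SE 0.16, edgeR adjusted p = 0.0753); DESeq2 called it. In heat against control larvae the nearest was FL81_23047, at 1.47 (SE 0.43, adjusted p = 0.113), which DESeq2 also called. FL81_23047 held 1.93, 1.42, 1.35, 2.63, 4.64 and 6.38 CPM in heat replicates 1 to 6 and 0.553 to 1.64 CPM in control replicates 1 to 6. Heat replicates 5 and 6 were the highest, and both were above the lowest of the oxidative libraries, which held 4.27 to 10.96 CPM.

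Replicates 7 and 8 of the heat, control and ancestor populations were not used by the rule, and the oxidative population has none with these numbers. The oxidative mean was at least 2 times the mean of replicates 7 and 8 in each of these populations for 36 of the 39 genes, beside 6.91% of the 8823 genes with an oxidative mean of at least 5 CPM. Only the other populations' side of this comparison is outside the rule. The 3 exceptions were FL81_11496 (ratio to the highest of these means 0.740), FL81_19341 (1.43) and FL81_13849 (1.87).

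FL81_11496 goes against the label. Its oxidative libraries held 19.1, 21.99, 19.1, 23.2, 21.5 and 27.2 CPM, against 33.9 and 25.6 CPM in ancestor replicates 7 and 8 and 7.69, 3.85, 7.28 and 2.03 CPM in ancestor replicates 3 to 6. Ancestor replicate 7 was thus above all 6 oxidative libraries, and replicate 8 above 5 of them. Over all 28 libraries its log2 fold change in oxidative against ancestor larvae was 0.45 (SE 0.50), and it was the only one of the 39 genes that was not called in any of the 3 contrasts.

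For most of the other genes, replicates 7 and 8 were lower than replicates 1 to 6 of the same population. The mean of replicates 7 and 8 was below that of the rule's libraries in all 3 populations for 32 of the 39 genes, beside 60.6% of all genes at 5 CPM or more, and above it in all 3 for 3 genes, beside 11.4%. With TMM-scaled CPM, 26 genes were below in all 3, beside 35.4% of all genes, and 3 above, beside 28.2%. In an edgeR fit of replicates 7 and 8 against 1 to 6 within heat, control and ancestor, 19 of the 39 genes were lower (12.7% of all genes) and 3 were higher (11.4% of all genes). The median log2 fold change was -0.80 for the 39 genes and -0.08 for all genes tested. The rule had limited the levels of replicates 1 to 6, so 1 side of this comparison is not independent of it.

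FL81_08328, FL81_04420 and FL81_21863 were among the genes that were lower. FL81_08328 held 27.1 and 35.3 CPM in heat replicates 7 and 8, 17.0 and 14.5 CPM in control and 20.4 and 26.4 CPM in ancestor replicates 7 and 8, against 54.0 CPM or more in every library numbered 1 to 6 (log2 fold change -1.58, SE 0.20, adjusted p = 6.14e-06). No library numbered 7 or 8 overlapped with the others for this gene. FL81_21863 held 171 and 146 CPM in heat, 115 and 94.4 CPM in control and 147 and 209.5 CPM in ancestor replicates 7 and 8 (log2 fold change -0.95, SE 0.21, adjusted p = 0.00216 against replicates 1 to 6). The largest fall was that of FL81_10526, at -1.90 (SE 0.37, adjusted p = 0.000742). The 3 genes that were higher were FL81_11496 (1.77, SE 0.31, adjusted p = 0.000277), FL81_21393 (1.40, SE 0.42, adjusted p = 0.0184) and FL81_19341 (0.71, SE 0.26, adjusted p = 0.046).

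**Figure D5:**
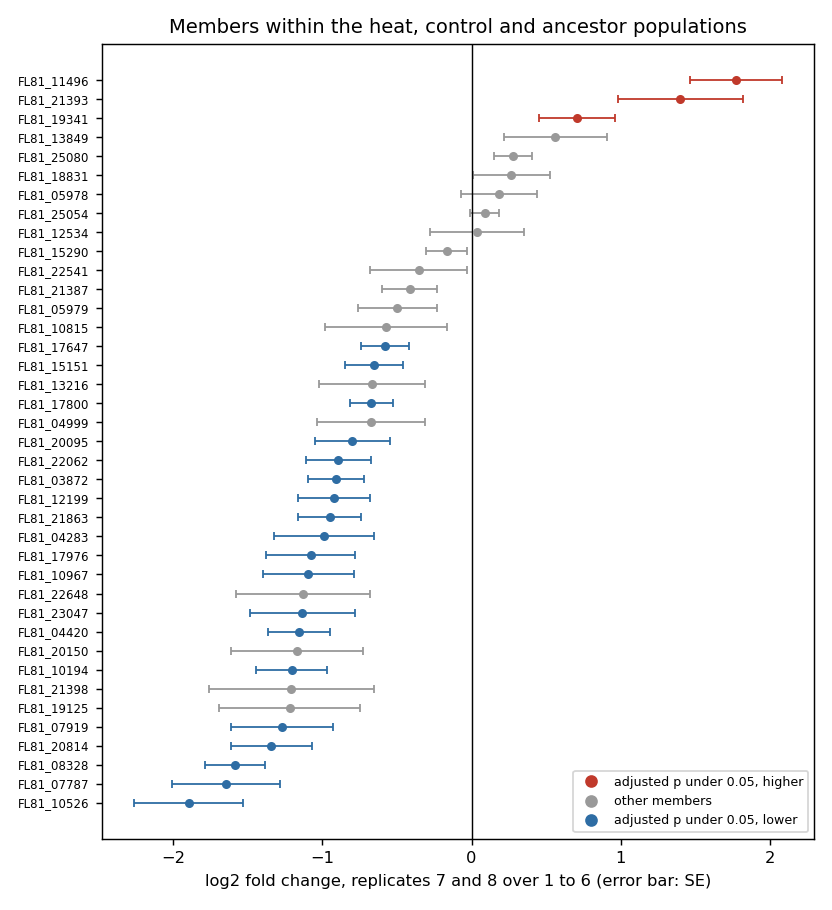
Log2 fold change of each of the 39 genes between replicates 7 and 8 and replicates 1 to 6 within the heat, control and ancestor populations (edgeR with a term for the population; bars are SE). Blue points are the 19 genes that were lower, red points the 3 that were higher and grey points the others.

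The summed level of the 39 genes in replicates 7 and 8 was 382 and 376 CPM in heat, 285 and 289 CPM in control and 438 and 447 CPM in ancestor larvae, below every library numbered 1 to 6 of the same population. Replicates 7 and 8 held 6718320 to 15755610 gene counts, beside 3103341 to 5754254 in the oxidative libraries. Over all 28 libraries the range was 1406684 to 15755610 (median 4875498). The deepest library numbered 1 to 6 held 4306080 in heat, 5214590 in control and 6887393 in ancestor larvae. Ancestor replicate 7, at 6718320, was not deeper than ancestor replicate 6, whose summed level was 822 CPM. Every other library numbered 7 or 8 was deeper than all libraries numbered 1 to 6 of the same population. The part of depth in the lower levels of replicates 7 and 8 was not tested. At these depths 3 reads correspond to between 0.190 and 2.13 CPM, so low values in the shallower libraries rest on few reads.

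The share of reads that did not align also moved with the oxidative population. It was 35.1% ± 1.91 in oxidative libraries (SD, n = 6), against 21.9% ± 4.29 in heat (n = 8), 24.9% ± 6.08 in control (n = 8) and 23.8% ± 6.28 in ancestor libraries (n = 6). The libraries of other populations within the oxidative range of 32.6% to 37.5% were control replicate 5, with 33.5% unaligned and a summed level of 657 CPM, and ancestor replicate 6, with 35.0% unaligned and 822 CPM. With the unaligned share as a covariate, edgeR called 34 of the 39 genes higher than in heat (11.6% of all genes), 36 than in control (12.5%) and 37 than in ancestor larvae (9.05%), and 34 in all 3 (6.05%). Because the share differed between the populations, its part in these differences and that of the population cannot be told apart. The share of reads outside genes was 28.5% ± 6.73 in heat (SD, n = 8) and 17.3% ± 1.92 in oxidative libraries (n = 6). It was 18.4% ± 3.70 in control (n = 8) and 16.2% ± 4.61 in ancestor libraries (n = 6). Heat replicates 3 to 6 held 31.4%, 39.1%, 25.6% and 37.3%. The part of reads outside genes in these differences was not tested.

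By identifier number, FL81_05978 and FL81_05979 were the only consecutive members among the 39. FL81_21387, FL81_21393 and FL81_21398 lay within 12 numbers of another member. Of the 16 identifiers from FL81_21385 to FL81_21400, 6 reached 5 CPM in oxidative larvae, and the 3 that did not belong to the 39 were FL81_21385 (64.8 CPM, ratio 1.02), FL81_21389 (11.2 CPM, ratio 0.70) and FL81_21396 (6.04 CPM, ratio 1.09). FL81_21387 held 15.98 ± 3.89 CPM in oxidative larvae, against 5.67 ± 2.80 CPM in heat, 7.17 ± 2.47 CPM in control (SD, n = 6 each) and 6.33 ± 1.70 CPM in ancestor larvae (n = 4). Identifier numbers need not follow the order of genes in the genome, and no positions are printed for them.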

How the data were processed

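Poly-A RNA of pooled L1 larvae was sequenced in 28 libraries. The authors deposited raw counts, 1 table per library with the reads assigned to 25337 identifiers and 5 summary lines, which were left out of library sizes and tests. GSNAP and HTSeq are the tools named, per the submitters' processing notes; the genome build, the annotation and whether strand was used were not given in the sources used here, so overlapping or near-identical genes may share reads.

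CPM was computed from gene counts. The 39 genes, and the comparisons, were chosen with earlier results of these data known. Tests used edgeR 4.0.16 in R 4.3.3 on the counts: filterByExpr with a minimum count of 10 (11952 genes, all 39 among them), TMM, 1 coefficient per population over 28 libraries, the quasi-likelihood test, and Benjamini-Hochberg adjustment over all tested genes at 0.05. The test was also run on simulated counts, drawn independently for each library. They held no shift in replicates 7 and 8, no effect of replicate number and no difference in unaligned share. That run therefore does not bear on how the test handles these. DESeq2 1.42.0, other scalings, filters, limits, covariates and leaving out libraries were tried as alternatives. The comparison of replicates 7 and 8 with 1 to 6 was added after the data were seen. The main fit had no term for the replicate number.

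Genes were named by a rule: the 6 largest ratios, the 6 highest oxidative means, the 2 genes on each side of each limit, the 2 with the most overlap, and consecutive identifiers. FL81_11496, FL81_19341, FL81_13849, FL81_10526, FL81_23047, FL81_19125 and FL81_21387 fall outside it. So do FL81_21385, FL81_21389, FL81_21396 and the other genes listed as lost under an alternative. All of these were chosen once their values had been seen.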

Additional observations from a re-analysis of the deposited data

Results flagged for a closer look

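For 15 named genes and for the summed level of the 39 genes with and without FL81_21863, each population's libraries were examined for 1 that stood far from the rest, in 68 groups of values. In 9 of them the highest library stood apart from its neighbours by more than Dixon's 95% limit. For normally distributed values, chance gives this in about 1 of 20 groups. CPM of genes with few reads need not be so distributed, so the 9 groups are not set against that rate. Control replicate 2 stood high for 3 of the genes with the largest ratios: FL81_05979 at 8.29 CPM (0.906 to 3.67 CPM in the other control libraries), FL81_05978 at 5.53 CPM (1.02 to 2.75) and FL81_21398 at 2.21 CPM (0 to 1.03). FL81_05979 also stood high in ancestor replicate 5, at 6.17 CPM, where the other ancestor libraries held 1.65 to 2.51 CPM. The 2.21 CPM of FL81_21398 in control replicate 2 rests on 4 reads. Control replicate 7 stood high for FL81_21393, at 2.40 CPM (0.192 to 0.951 in the others). Heat replicate 1 stood high for FL81_25054, at 90.6 CPM (37.1 to 61.8), and for FL81_22541, at 10.9 CPM (1.35 to 4.64). Within the oxidative population, replicate 4 stood high for FL81_15290, at 136 CPM (60.0 to 86.8), and for FL81_12534, at 14.2 CPM (4.48 to 5.93). Control replicate 2, ancestor replicate 5, heat replicate 1 and oxidative replicate 4 had TMM factors of 1.31, 1.26, 1.46 and 1.25, while control replicate 7 had 0.698. The part of these factors in the high values was not tested.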

How the results depend on the processing

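The number of genes that met the rule moved with its limits. It was 233 at 1.5-fold, 11 at 3-fold, and 81 with all 28 libraries, 37 of them among the 39. It was 33 with TMM-scaled CPM, 56 with medians in place of means, 56 at 2 CPM, 26 at 10 CPM, and 47 without heat replicates 3 to 6 (32 of the 39 among them; added after the data were seen). Leaving out 1 library gave 33 (without oxidative replicate 4) to 54 (without oxidative replicate 3) genes. Called genes among the 39, with 1 library left out, numbered 35 to 38 in oxidative against heat, 35 to 37 against control, 32 to 36 against ancestor and 32 to 36 in all 3. They numbered 0 to 1 in heat against control, 0 to 1 in heat against ancestor and 0 to 0 in control against ancestor larvae. The shares of all genes with 1 library left out are not given, so these ranges show only how far the counts moved. Genes at least 2 times above replicates 7 and 8 numbered 33 to 37, and genes lower in replicates 7 and 8 numbered 15 to 21.

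In heat against control larvae, 1 gene, FL81_23047, was called with a replicate block, with a term for replicates 7 and 8 (added after the data were seen), with DESeq2, and without heat replicate 8. In heat against ancestor larvae, 1 gene was called with replicates 1 to 6 alone (FL81_03872), and FL81_15290 was called with a replicate block, with the unaligned share as a covariate, with a term for replicates 7 and 8, with DESeq2, and without ancestor replicate 8, heat replicate 1 or heat replicate 2. The cause was not tested. Among results of single named genes, 435 of the alternatives counted kept direction and side of the threshold, 8 lost the call, 7 gained one and 0 turned. Of the runs with 1 library left out, only those with the lowest and highest log2 fold change were counted for each gene and contrast.

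Counts over all genes moved by more than 1.5 times under some of these settings. With the unaligned share as a covariate, 1392 genes were higher in oxidative than in heat, 1498 than in control, 1082 than in ancestor larvae, and 723 in all 3. DESeq2 called 434 against ancestor, and replicates 1 to 6 alone gave 118 in all 3. For heat against control, all-gene calls were 242 with replicates 1 to 6 alone, 180 with the replicate block, 202 with the term for replicates 7 and 8, 173 with DESeq2 and 1 without heat replicates 3 to 6; for heat against ancestor they were 164, 73, 69, 89 and 3; for control against ancestor they were 52, 17, 22, 17 and 9.

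Same-numbered libraries of different populations deviated together more often than libraries of different numbers, though not in every pair. Their correlation was -0.37 to 0.68, with a median of 0.16 and 20 of 36 pairs over 0.1. Libraries of different numbers had a median of -0.00, with 80 of 256 over 0.1. All 3 pairs of number 1 and of number 8 were over 0.1. Of the 28 libraries, 10 were closest to one of their own number. The number expected by chance for this last count was not computed, and the main fit had no term for the replicate number. With a replicate block, 39 of the 39 genes were called against heat, 38 against control, 36 against ancestor and 36 in all 3. The shares of all genes under this block are not given here. These contrasts were used to choose the genes, so the counts are a description only.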

Other observations

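FL81_20150 and FL81_19125 shared a pattern among the heat and control libraries that the means do not show; both were noticed after their values were seen, and neither was tested for it. FL81_20150 held 11.6, 14.5, 16.02 and 14.3 CPM in heat replicates 3 to 6, against 1.93, 2.13, 1.86 and 7.16 CPM in heat replicates 1, 2, 7 and 8. In control larvae it held 21.1, 21.5, 18.1 and 19.9 CPM in replicates 3 to 6, against 9.51, 8.84, 1.55 and 2.39 CPM in replicates 1, 2, 7 and 8. Replicates 3 to 6 were thus higher in both populations, while the ancestor libraries, at 2.83 to 6.68 CPM, did not divide by number. FL81_19125 held 7.58, 7.02, 9.06 and 9.39 CPM in heat replicates 3 to 6, against 3.21, 0, 0.743 and 1.496 CPM in heat replicates 1, 2, 7 and 8. In control larvae it held 10.7, 10.2, 9.46 and 5.94 CPM in replicates 3 to 6, against 1.43, 2.76, 3.11 and 0.737 CPM in replicates 1, 2, 7 and 8. In oxidative larvae, replicates 1 and 2 held 28.7 and 24.2 CPM of FL81_19125, within the 19.5 to 29.0 CPM of replicates 3 to 6.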
